A study of Mus musculus with 12 samples.

Results

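RNA-seq libraries of prostate tissue were compared between 3 mice labelled Pb-ERG, Trp53pc-/- (called double mutant mice here) and 3 mice labelled Pb-ERG, which together are 6 of the 12 libraries analysed here. All mice were C57BL/6 and 15 months old. In Pb-ERG mice, a probasin promoter (*Pb*), active in prostate epithelium, drives an ERG transgene modelled on the TMPRSS2-ERG fusion of human prostate cancer. In double mutant mice, a Cre recombinase under the same promoter also deletes floxed *Trp53* in prostatic cells, so the stroma, vessels and immune cells of the tissue keep the gene, and the genotype of the Pb-ERG mice does not list Cre. The other 6 libraries, 3 WT and 3 Trp53pc-/- (the same deletion without the transgene), served as reference. The members compared were all 41042 genes of the tables, of which 17623 passed a filter on low values and were tested. The values are FPKM (fragments scaled by exon length and library size), and differences are given on the log2(FPKM + 1) scale, on which low genes show too small a change.

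p53, the product of *Trp53*, is a transcription factor that is stabilized by DNA damage and oncogene activity and then activates genes that halt the cell cycle, repair DNA or start cell death. ERG is an ETS family transcription factor that is normally active in endothelial and blood-forming cells. Luminal cells of the prostate are secretory, and their proteins pass through the endoplasmic reticulum, where chaperones fold them.

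The 6 libraries held 20277688 to 32565774 fragments each. 2 of them stood apart. In double mutant replicate 3, *Pbsn* (probasin) was at 53.3 FPKM against 6138 to 7441 FPKM in the other 5 libraries, the smooth muscle gene *Acta2* was at 27.7 FPKM against 209 to 648 FPKM, the basal keratin *Krt5* was at 1.49 FPKM against 15.8 to 44.6 FPKM, and 8 skeletal muscle markers summed to 544 FPKM against 22.9 to 90.5 FPKM. In Pb-ERG replicate 1 the 9 seminal vesicle secretory genes summed to 49652 FPKM. They summed to 160.2 and 84.7 FPKM in the other Pb-ERG mice and to 3791, 48202 and 1.87 FPKM in double mutants. The chaperone, p53 target, mitosis and interferon lists are given with and without each of these libraries, and other lists only in part. With a library left out, more of all genes separate the groups (12.5% higher and 6.07% lower without double mutant replicate 3, and 12.5% each way without Pb-ERG replicate 1). All 12 luminal epithelial markers had fragments in every library (summed level 1999 to 2355 FPKM in Pb-ERG and 2749 to 3415 FPKM in double mutant mice). Prostate secretory and smooth muscle markers did not hold in double mutant replicate 3. There 17 prostate secretory genes summed to 1239 FPKM against 44514 to 77292 FPKM in the other 5 libraries. The 10 smooth muscle markers summed to 198 FPKM against 695 to 2375 FPKM. *Krt5* did not stand for the 12 basal markers, which summed to 153 FPKM in this library and to 114 to 159 FPKM in Pb-ERG mice. In double mutant replicates 1 and 2 the basal sums were 276 and 222 FPKM.

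*Erg* and *Trp53* RNA did not separate the groups. Both groups carry the ERG transgene, and the *Erg* value does not measure it apart from the mouse gene. *Erg*, on the minus strand of chromosome 16 (GRCm38, 95359169 to 95586593), was at 15.8, 12.2 and 22.5 FPKM in the Pb-ERG mice and 8.26, 9.75 and 27.1 FPKM in double mutants, and the groups overlapped. *Trp53*, on the plus strand of chromosome 11 (69580359 to 69591873), was at 13.4, 22.3 and 20.4 FPKM against 16.8, 11.2 and 21.5 FPKM. A value for the whole gene does not check a deletion made in part of the cells, so the *Trp53* status of each library is that of its label.

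Across all genes tested, limma called 3 genes higher in the double mutant mice (0.017%) and 0 lower (0%) when the Benjamini-Hochberg adjusted p had to be under 0.05. Without adjustment, 1843 genes passed 0.05 on the higher side (10.5%) and 433 on the lower side (2.46%). The FPKM depend on a few very abundant secretory genes, and the median difference of all genes was 0.12 with the FPKM as deposited and 0.0029 with median-of-ratios scaling, a scaling by the typical gene. With that scaling the unadjusted calls were 1174 higher and 1010 lower, so the share of higher calls went from 81.0% to 53.8%. A stricter description of what held in all mice was therefore used: a gene counted as higher or lower in all mice when the 3 double mutant values lay all above or all below the 3 Pb-ERG values under both scalings. This held for 1259 genes that were higher (7.14%) and 524 that were lower (2.97%), and these shares are the background for every gene list here. For any single gene without overlap the two-sided exact permutation test gives p = 0.1, and groups of 3 cannot reach a smaller one.

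The 3 genes that passed the test all rose with *Trp53* deletion. *Ociad2* (chromosome 5, 73322199 to 73338593, minus strand), a mitochondrial and endosomal membrane protein gene, had 3.65, 2.26 and 3.03 FPKM in the Pb-ERG mice and 20.6, 24.1 and 17.1 FPKM in double mutants. Its mean went from 2.98 ± 0.697 to 20.6 ± 3.50 FPKM (SD, n = 3 mice each), a log2 difference of 2.44 (SE 0.27, adjusted p = 0.025 from limma). *Smoc2* (chromosome 17, 14279506 to 14404790, plus strand), which encodes a calcium-binding matrix protein, had 36.1, 27.6 and 45.6 FPKM against 107, 92.2 and 115 FPKM, a difference of 1.52 (SE 0.17, adjusted p = 0.025 from limma). *Acox2* (chromosome 14, 8225511 to 8259353, minus strand), a peroxisomal oxidase for branched fatty acids and bile acid intermediates, was low in both groups, with 0.145, 0.339 and 0.167 FPKM against 1.32, 0.966 and 1.36 FPKM, a difference of 0.86 (SE 0.10, adjusted p = 0.025 from limma). The mice of each group lay close together in all 3 genes, and the WT and Trp53pc-/- mice were at the level of the Pb-ERG mice or below it in *Smoc2* and *Acox2* and at 1.61 to 5.12 FPKM in *Ociad2*. Without double mutant replicate 3 the differences were 2.56, 1.45 and 0.81, in the same order.

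Other genes did not pass the test but showed wide gaps between the groups. Among the 10 named genes with the widest gap upwards were *Ociad2* and *Smoc2*, and the adjusted p of the 10 ran from 0.025 to 0.28 (limma with Benjamini-Hochberg adjustment). *Stra6*, the cell surface receptor that takes up retinol, had 2.93, 3.97 and 2.59 FPKM in the Pb-ERG mice and 18.9, 13.1 and 32.6 FPKM in double mutants (log2 difference 2.36, SE 0.33, adjusted p = 0.055 from limma). *Bok*, a pro-apoptotic member of the Bcl-2 family, had 5.17, 9.66 and 6.80 FPKM against 23.1, 22.8 and 44.6 FPKM. *Lgals3*, which encodes the lectin galectin-3, had 8.56, 19.98 and 23.8 FPKM against 66.0, 53.01 and 114 FPKM. In each of these genes the lowest double mutant mouse was more than the highest Pb-ERG mouse. *Ivl* (involucrin, a protein of the cornified envelope of stratified epithelia) had 0.130, 0.319 and 0.214 FPKM, from 8 to 15 fragments, against 3.08, 2.29 and 10.6 FPKM. *S100a14*, an epithelial S100 protein gene, had 4.81, 5.35 and 6.80 FPKM against 20.7, 18.4 and 65.1 FPKM. *Ifitm1*, an interferon-inducible membrane protein gene, had 5.25, 7.02 and 5.26 FPKM against 18.2, 14.5 and 23.2 FPKM. *Ivl* and *S100a14* were highest in replicate 3, yet their other double mutant mice were also apart from the Pb-ERG mice.

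Immune cell genes were also among the widest gaps. *Trem2*, a receptor of macrophages, had 1.64, 0.809 and 1.14 FPKM in the Pb-ERG mice and 11.3, 5.65 and 11.1 FPKM in double mutants (log2 difference 2.20, SE 0.31, adjusted p = 0.055 from limma). *Gzmb*, a cytotoxic granule protease of T and NK cells, had 0.628, 1.62 and 0.666 FPKM against 6.33, 4.42 and 7.89 FPKM (1.88, SE 0.29, adjusted p = 0.079 from limma). Both genes separated the groups, but the summed markers of their cell types overlapped. Of 13 myeloid markers, 2 were higher in all mice (*C1qa*, a complement component made by macrophages, and *Tyrobp*, the signalling partner of *Trem2*). The 13 summed to 166 to 649 FPKM in Pb-ERG and 471 to 959 FPKM in double mutant mice. All 13 had a positive mean difference, with a median of 0.91 beside 0.12 for all genes. The median was 1.07 without double mutant replicate 3 and 0.50 without Pb-ERG replicate 1 (0.078 and 0.041 for all genes). Of 13 T and NK cell markers only *Gzmb* was higher in all mice, and the sums were 11.4 to 64.1 FPKM and 27.8 to 38.3 FPKM. Without Pb-ERG replicate 1, *Gzmb* was still the 1 marker higher in all mice. Of the 13, 6 were then lower (46.2%, background 12.5%), and the list's median went from -0.16 to -0.54. In whole tissue, more cells of a type and more RNA per cell cannot be told apart.

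**Figure D1:**
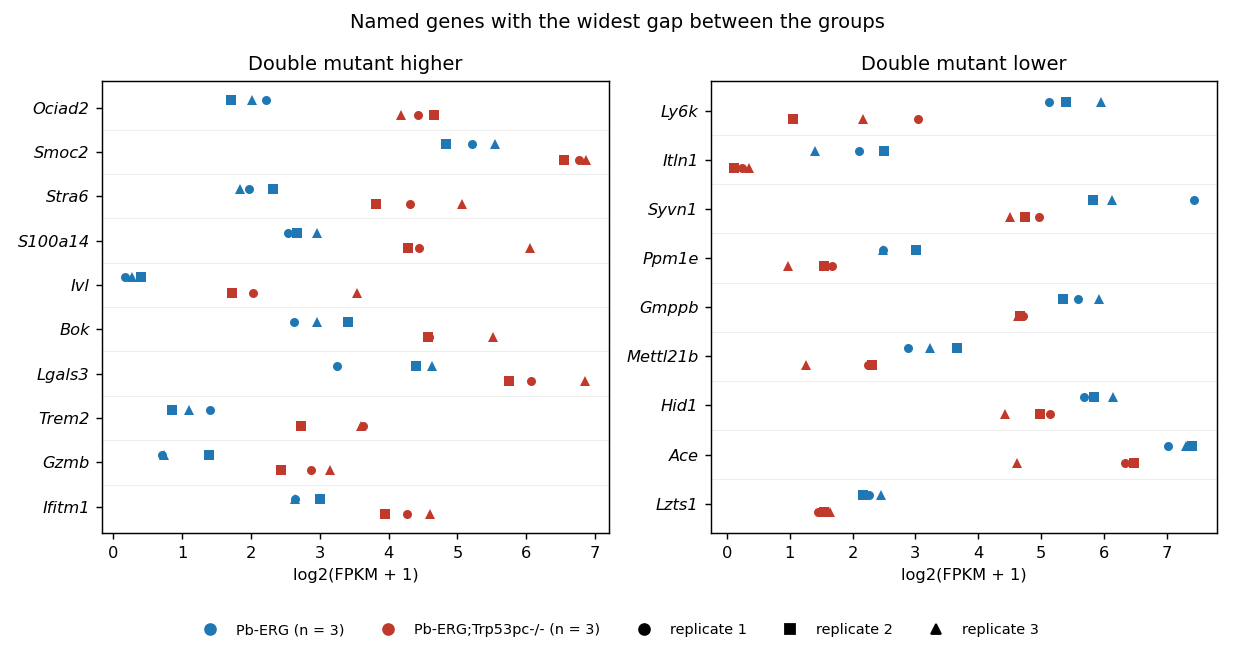
Expression of the 10 named genes with the widest gap upwards (left) and 9 of the 10 with the widest gap downwards (right), as log2(FPKM + 1) on the x axis, in each Pb-ERG and double mutant mouse (points, n = 3 mice a group, marker shape by replicate). In every row the 3 double mutant mice lie on one side of the 3 Pb-ERG mice, for example *Ociad2* at 17.1 to 24.1 FPKM against 2.26 to 3.65 FPKM.

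Among genes lower in the double mutant mice, *Ly6k*, a GPI-anchored surface protein gene of the Ly6 family, had the widest gap. It had 33.9, 40.9 and 60.7 FPKM in the Pb-ERG mice and 7.23, 1.07 and 3.51 FPKM in double mutants (log2 difference -3.40, SE 0.47, adjusted p = 0.055 from limma), and it overlaps an antisense gene that unstranded counting cannot tell from it. It was at 1.29 to 3.01 FPKM in WT mice and at 0.1003 to 1.33 FPKM in Trp53pc-/- mice, so the double mutant values were nearer to those of mice without the transgene. *Itln1*, which encodes the lectin intelectin-1, had 3.31, 4.68 and 1.66 FPKM against 0.186, 0.0864 and 0.273 FPKM, the lowest from 2 fragments, and it varied from 10.5 to 391 FPKM among WT mice (log2 difference -1.77, adjusted p = 0.55 from limma). *Ace* (angiotensin-converting enzyme) had 129, 167 and 156 FPKM against 79.1, 87.7 and 23.5 FPKM. *Ppm1e* (a protein phosphatase), *Mettl21b* (a lysine methyltransferase), *Hid1* (needed for dense core granules) and *Lzts1* (a leucine zipper protein) were lower by 1.26, 1.32, 1.04 and 0.74 on the log2 scale, with mean levels of 1.69, 3.04, 28.3 and 1.93 FPKM in double mutants.

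Other genes with wide downward gaps act in protein quality control and glycosylation. *Syvn1*, the ubiquitin ligase (Hrd1) that marks misfolded proteins of the endoplasmic reticulum, had 172, 55.2 and 68.8 FPKM in the Pb-ERG mice and 30.2, 25.7 and 21.8 FPKM in double mutants (log2 difference -1.72, SE 0.39, adjusted p = 0.22 from limma). *Gmppb*, which makes GDP-mannose for glycosylation, had 46.8, 39.4 and 59.4 FPKM against 25.1, 24.4 and 23.6 FPKM. Both genes had 1312 fragments or more in every library, and the groups did not overlap in either.

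Chaperones and stress genes of the endoplasmic reticulum were the list with the highest share of members without overlap. Of 21 genes tested, 12 were lower in all mice and 0 higher (57.1% lower against the background of 2.97%), none past the adjusted test (adjusted p from 0.28 to 0.54 for the 12, limma with Benjamini-Hochberg adjustment). The median difference of the list was -0.81, or -0.99 with median-of-ratios scaling, beside 0.12 and 0.0029 for all genes. *Hspa5* (BiP, the main luminal chaperone) had 3170, 891 and 1236 FPKM in the Pb-ERG mice and 633, 636 and 698 FPKM in double mutants. Pb-ERG replicate 1 was far above the other Pb-ERG mice, while the double mutant mice were close together. *Calr* (calreticulin, a chaperone of glycoproteins) had 1525, 1094 and 1281 FPKM against 663, 816 and 726 FPKM. *Pdia4*, a disulfide isomerase, had 572, 201 and 253 FPKM against 150, 155 and 136 FPKM. *Herpud1*, which takes part in the degradation of misfolded proteins, had 659, 192 and 338 FPKM against 165, 179 and 72.7 FPKM. In all 4 genes every double mutant mouse was below every Pb-ERG mouse. *Hsp90b1* (Grp94), *Canx* (calnexin), *Hyou1*, *Dnajb11*, *Sdf2l1* and *Manf*, further chaperones or partners of *Hspa5*, *Edem1*, a lectin of the degradation route, and *Asns*, the asparagine synthetase induced by stress, made up the 12, with differences from -0.25 (*Canx*) to -1.20 (*Hyou1*).

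Promoters of several of these genes hold the endoplasmic reticulum stress element, the sequence through which the ATF6 and XBP1 factors are known to act. The element was searched as CCAAT and CCACG with 9 bases between them, on both strands, in the 300 bases around each start site (RefSeq, GRCm38.p6) and was found in 0.119% of 32851 promoters. It was found in 6 of the 19 list genes with a promoter, among them 4 of the 10 that were lower in all mice and had one. The windows of these 4 are shown because they are the genes of the 12 that hold the element. Each reads 5′ to 3′ on the gene's strand, with the element in capitals.
*Hspa5*, chr2:34772000-34772068, plus strand: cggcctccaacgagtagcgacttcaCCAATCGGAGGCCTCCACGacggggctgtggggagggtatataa
*Hsp90b1*, chr10:86705508-86705681, minus strand: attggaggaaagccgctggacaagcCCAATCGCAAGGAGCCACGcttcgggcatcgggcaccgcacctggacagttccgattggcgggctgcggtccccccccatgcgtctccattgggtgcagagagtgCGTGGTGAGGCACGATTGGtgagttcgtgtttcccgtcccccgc
*Calr*, chr8:84847050-84847118, minus strand: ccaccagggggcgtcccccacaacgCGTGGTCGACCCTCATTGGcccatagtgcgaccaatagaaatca
*Canx*, chr11:50325775-50325843, minus strand: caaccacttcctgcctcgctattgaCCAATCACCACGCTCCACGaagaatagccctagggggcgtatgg
A match is a description of the letters and not a binding site in these mice.

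Without double mutant replicate 3, 12 of the 21 genes were lower in all remaining mice (background 6.07%) and the list's median was -0.62. Without Pb-ERG replicate 1, 13 were (background 12.5%) and the median was -0.56. Seminal vesicle RNA was highest in Pb-ERG replicate 1 and double mutant replicate 2. The chaperone list summed to 11540 FPKM in that Pb-ERG mouse, the highest of the 6 libraries, and to 4884 FPKM in that double mutant mouse. Seminal vesicle RNA did not separate the groups, and its part in the chaperone difference was not tested. Plasma and B cell markers summed to 21.4, 136 and 265 FPKM in the Pb-ERG mice and 128, 36.2 and 14.4 FPKM in double mutants. Without Pb-ERG replicate 1 they were lower in every double mutant mouse, with 4 of 8 markers lower in all mice, and their part in the chaperone difference was not tested. The same list was also lower in the Trp53pc-/- mice than in the WT mice, a comparison that shares no library with the first. There 11 of the 21 genes were lower in all mice (background 5.87%, and 6.58% for higher genes) and 0 higher, with a median of -0.58, and 9 genes were lower in both comparisons. *Hspa5* had 1258, 1738 and 2420 FPKM in WT animals and 963, 706 and 654 FPKM in Trp53pc-/- animals. The difference between both *Hspa5* changes was -0.020 on the log2 scale (SE 0.69, adjusted p = 0.996 from limma), an error too wide to tell whether they were alike.

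**Figure D2:**
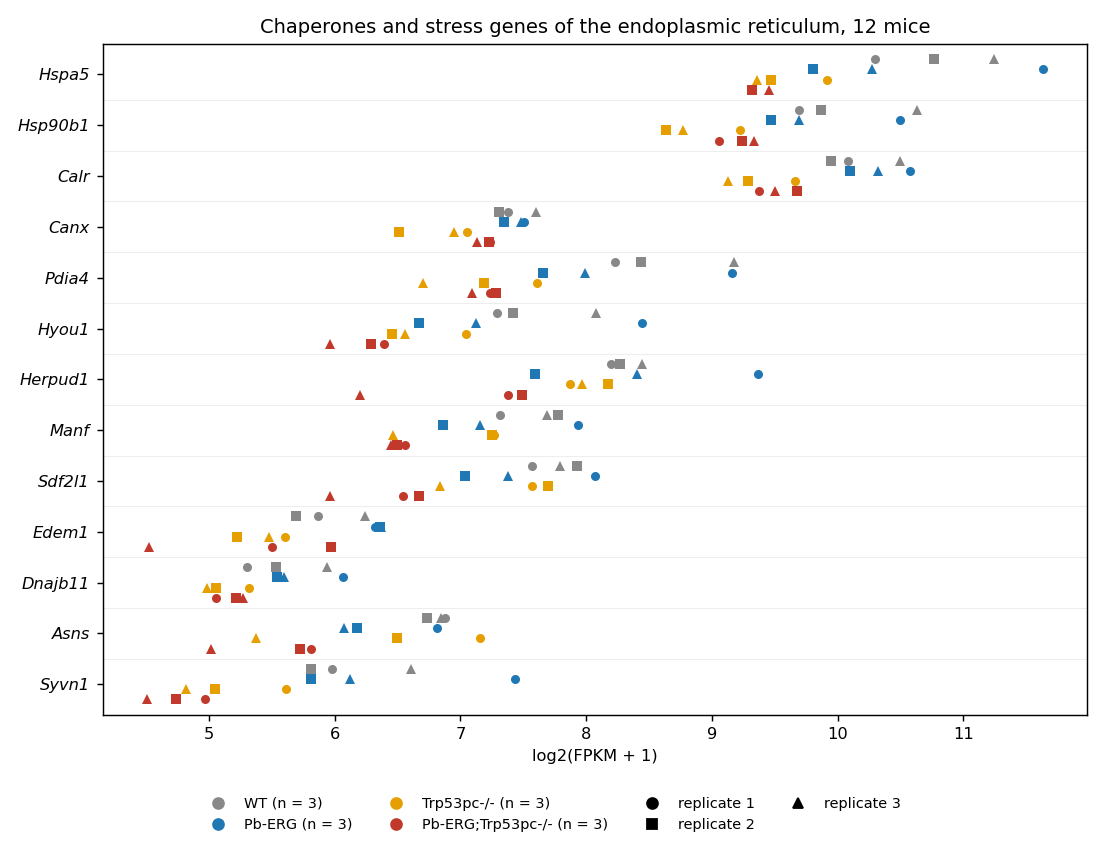
Expression of *Syvn1* and the 12 list genes of the endoplasmic reticulum that were lower in all double mutant than in all Pb-ERG mice, as log2(FPKM + 1) on the x axis, in all 12 mice (points, n = 3 a genotype, marker shape by replicate). The Trp53pc-/- mice lie below the WT mice in 9 of these 12 and in *Syvn1*, for example *Hspa5* at 654 to 963 FPKM against 1258 to 2420 FPKM.

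Other steps of the secretory route were grouped after their values were seen, so they are a description and no independent support for the chaperone result. In the import of proteins into the endoplasmic reticulum (translocon, signal recognition particle, signal peptidase) 6 of 22 genes tested were lower in all mice and 0 higher. In N-glycosylation 10 of 31 were lower and 0 higher, and in the COPI and COPII vesicle coats 8 of 22 were lower and 1 higher. *Spcs3*, a subunit of the signal peptidase, had 118, 101 and 108 FPKM in the Pb-ERG mice and 65.7, 73.3 and 39.2 FPKM in double mutants. *Sec23b*, a COPII coat subunit, had 62.2, 57.7 and 77.9 FPKM against 42.7, 41.2 and 35.5 FPKM, and *Sec24a*, its cargo-binding partner, had 9.54, 9.30 and 9.94 FPKM against 6.31, 6.38 and 5.19 FPKM. The medians were -0.17, -0.23 and -0.19 on the log2 scale, or -0.34, -0.39 and -0.36 with median-of-ratios scaling. Without Pb-ERG replicate 1, 15 of the 31 N-glycosylation genes were lower in all mice (background 12.5%). Between Trp53pc-/- and WT mice, 3 import, 4 N-glycosylation and 0 coat genes were lower in all mice (background 5.87%), and 0, 1 and 0 were higher.

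Of 39 p53 target genes tested, 6 were lower in all double mutant mice (15.4%) and 2 higher (5.13%), none past the adjusted test (adjusted p from 0.22 upwards, limma with Benjamini-Hochberg adjustment). The median of the list was 0.053, or -0.087 with median-of-ratios scaling, so the sign depended on the scaling. Without double mutant replicate 3, 9 genes were lower in all mice (23.1%, background 6.07%) and 4 higher (10.3%, background 12.5%). Without Pb-ERG replicate 1, 10 were lower (25.6%) and 3 higher (7.69%), beside a background of 12.5% each way. *Eda2r*, a death receptor of the TNF family (minus strand of chromosome X, 97333840 to 97377216), was at 2.34, 3.58 and 2.73 FPKM in the Pb-ERG mice and 1.60, 1.14 and 1.08 FPKM in double mutants (log2 difference -0.77, SE 0.17, adjusted p = 0.22 from limma). *Ccng1* (cyclin G1, which feeds back on p53) had 57.4, 59.5 and 68.3 FPKM against 44.1, 49.2 and 34.2 FPKM, a difference of -0.54. *Ephx1*, an epoxide hydrolase of detoxification, had 68.8, 77.6 and 77.6 FPKM against 50.6, 58.2 and 10.8 FPKM, with replicate 3 far below the other double mutant mice (-1.19, and -0.45 without it). In these 3 genes the Trp53pc-/- mice also lay below all WT mice, *Eda2r* at 0.381 to 0.612 FPKM against 1.33 to 1.97 FPKM and *Ccng1* at 36.4 to 42.0 FPKM against 49.5 to 58.5 FPKM.

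*Sesn2* (sestrin 2, an inhibitor of mTORC1), *Aen* (an apoptosis-enhancing nuclease) and *Gdf15* (a stress-induced cytokine) were the other 3 that were lower in all mice. *Sesn2* had 8.79, 7.11 and 11.2 FPKM in the Pb-ERG mice and 3.73, 4.17 and 5.73 FPKM in double mutants, *Aen* was lower by 0.38 on the log2 scale, and *Gdf15* was low throughout (0.673 to 1.17 FPKM against 0.0230 to 0.393 FPKM, the lowest from 1 fragment). The best known targets overlapped between the groups. *Cdkn1a* (p21, the inhibitor that stops the cell cycle) had 11.6, 22.2 and 29.7 FPKM against 13.04, 9.23 and 38.2 FPKM, with its highest value in replicate 3, and its difference of -0.22 turned positive without either of 2 mice. *Mdm2*, the ubiquitin ligase that degrades p53, had 19.6, 22.0 and 21.3 FPKM against 16.2, 16.9 and 26.1 FPKM. *Plk2*, a kinase induced by p53 under stress, was higher in all double mutant mice (7.08, 10.6 and 3.80 FPKM against 18.8, 15.3 and 31.1 FPKM), as was *Abhd4*, a lipase. Of the 39 genes, 3 were lower in all mice in both *Trp53* comparisons and 0 higher in both.

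The p53 half-site was searched on both strands, with any match to the degenerate 10-base consensus counted, and occurred in 8.36% of the promoters and in 12 of the 30 list genes with a promoter. It was found in 2 of the 6 genes that were lower in all mice, *Aen* and *Ccng1*. The window of *Ccng1* is shown because this gene was lower in all mice of both comparisons, with the half-site in capitals.
*Ccng1*, chr11:40755437-40755496, minus strand: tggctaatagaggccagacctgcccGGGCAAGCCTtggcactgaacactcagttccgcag

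**Figure D3:**
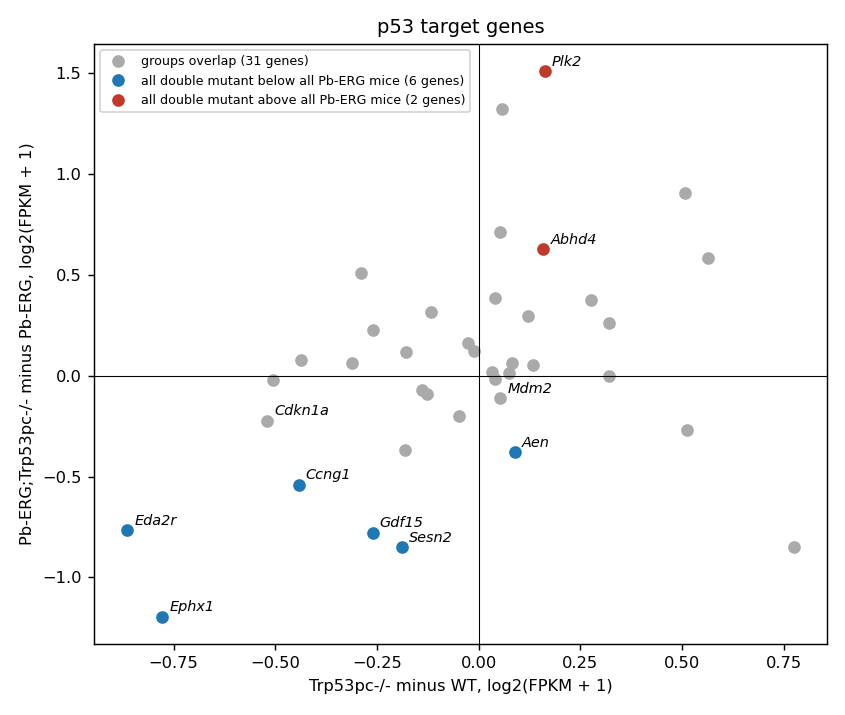
Difference on the log2(FPKM + 1) scale of the 39 tested p53 target genes between double mutant and Pb-ERG mice (y axis) and between Trp53pc-/- and WT mice (x axis, no shared library), n = 3 mice a group, each point a gene and the colour its overlap in the first comparison. *Eda2r*, *Ephx1* and *Ccng1* lie lower left, while *Cdkn1a* and *Mdm2* lie near 0 on the y axis (-0.22 and -0.11).

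Many genes of mitosis were higher in all double mutant mice. Of 30 genes tested, 11 were higher in all mice and 0 lower (36.7% against the background of 7.14%), none past the adjusted test (adjusted p from 0.28 to 0.33 for the 11, limma with Benjamini-Hochberg adjustment). *Cdk1*, the kinase that starts mitosis, had 2.001, 4.36 and 2.66 FPKM in the Pb-ERG mice and 4.87, 4.69 and 23.2 FPKM in double mutants. *Cdc20*, an activator of the anaphase-promoting complex, had 1.61, 4.03 and 3.26 FPKM against 5.31, 5.01 and 27.5 FPKM. *Cenpa*, the histone variant of centromeres, had 0.726, 3.56 and 2.19 FPKM against 4.58, 3.68 and 24.4 FPKM, and *Foxm1*, a transcription factor of this programme, 0.614, 1.33 and 0.971 FPKM against 1.83, 1.36 and 3.63 FPKM. Replicate 3 stood far above the other double mutant mice, which exceeded the highest Pb-ERG mouse by little. The others of the 11 were *Cenpe*, *Cenpf*, *Kif11*, *Kif23*, *Nusap1*, *Tpx2* and *Mad2l1*, which encode kinetochore, motor, spindle and checkpoint proteins. The proliferation marker *Mki67* overlapped (1.69, 3.95 and 1.87 FPKM against 3.61, 3.28 and 10.9 FPKM), and so did *Top2a* (3.82 to 6.66 FPKM against 5.54 to 55.1 FPKM). Between Trp53pc-/- and WT mice, 7 of the 30 genes were higher in all mice and 1 lower (backgrounds 6.58% and 5.87%), with a median of 0.14. *Cdk1* and *Cdc20* were higher in all mice in both comparisons.

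The size of the mitotic difference between double mutant and Pb-ERG mice depended on double mutant replicate 3. The list's median difference was 0.90 and was 0.40 without that mouse, where 11 genes still were higher in all remaining mice (background 12.5%). Without Pb-ERG replicate 1 the list's median was 0.70, with 11 genes higher and 0 lower (background 12.5% each way). Averaged over its members, log2(FPKM + 1) reached 1.09, 1.77 and 1.46 in the Pb-ERG mice and 1.93, 1.73 and 3.43 in the double mutant mice, so on this measure double mutant replicate 2 lay below Pb-ERG replicate 2. In DNA replication 5 of 28 genes were higher in all mice and 0 lower (17.9%), among them the helicase subunits *Mcm4*, *Mcm5* and *Mcm6*, *Uhrf1*, which keeps DNA methylation through replication, and *Chaf1b*, a subunit of the chromatin assembly factor. *Mcm6* had 2.90, 4.85 and 3.36 FPKM against 7.97, 5.37 and 13.4 FPKM. In DNA damage repair 2 of 24 were higher (*Brca1* and *Exo1*), in G1/S control 2 of 22 (*Cdkn2c* and *Cdk6*) and in apoptosis 1 of 22. These shares (8.33%, 9.09% and 4.55%) were near the background. The apoptosis gene was *Bcl2l1*, the survival protein Bcl-xL, at 13.9, 15.1 and 16.5 FPKM against 26.1, 27.7 and 21.6 FPKM. Without double mutant replicate 3 the apoptosis count was 4 higher and 2 lower (18.2% and 9.09%, backgrounds 12.5% and 6.07%). *Cdkn2a*, whose product ARF stabilizes p53, reached 89.5 FPKM in replicate 3 but 4.35 and 2.74 FPKM in the other double mutant mice against 0.105, 1.06 and 2.76 FPKM, so the groups overlapped.

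The cell cycle homology region, searched as TTTGAA on both strands, is a common short run found in 17.9% of promoters. It occurred in 17 of the 24 mitosis genes with a promoter and in 6 of the 9 higher in all mice. The regions before the start sites of *Cdk1* and *Cdc20* are shown as the list's defining members, with the letters in capitals.
*Cdk1*, chr10:69352913-69353008, minus strand: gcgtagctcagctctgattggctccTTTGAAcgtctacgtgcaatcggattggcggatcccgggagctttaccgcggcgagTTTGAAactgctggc
*Cdc20*, chr4:118437344-118437386, minus strand: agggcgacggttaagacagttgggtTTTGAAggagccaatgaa

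Part of the interferon response genes were also higher in all double mutant mice. Of 24 tested, 8 were higher in all mice and 0 lower (33.3% against 7.14%), none past the adjusted test (adjusted p from 0.26 to 0.35 for the 8, limma with Benjamini-Hochberg adjustment), and the median difference was 0.96. *Isg15*, a ubiquitin-like protein that is attached to others upon interferon, had 3.41, 13.4 and 19.4 FPKM in the Pb-ERG mice and 31.4, 44.5 and 155 FPKM in double mutants. *Irf7*, the factor that drives type I interferon genes, had 2.72, 13.6 and 21.0 FPKM against 23.9, 41.3 and 45.5 FPKM. *Ifit3*, an RNA-binding antiviral protein gene, had 1.55, 8.82 and 10.5 FPKM against 16.03, 14.5 and 14.9 FPKM. *Oasl2*, of the oligoadenylate synthetase family, had 2.40, 19.0 and 20.1 FPKM against 22.1, 51.1 and 41.4 FPKM. Pb-ERG replicate 1 was the lowest of the 6 libraries in each, and the other Pb-ERG mice lay between it and the double mutant mice. *Ifit1*, *Ifit2*, *Irf9* and *Oas1a* were the other 4, with differences of 1.52, 0.97, 0.85 and 1.41. The Ifit and Oas genes have close paralogs, and how the counting split fragments among them is uncertain.

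Without double mutant replicate 3, 8 interferon genes were higher in all mice and 0 lower (backgrounds 12.5% and 6.07%), and the median difference was 0.68. Without Pb-ERG replicate 1, 8 interferon genes were higher in all mice and 1 lower (backgrounds 12.5% and 12.5%), and the median difference was 0.35. The list mean in log2(FPKM + 1) was 1.89, 3.74 and 3.76 in the Pb-ERG mice and 3.60, 3.90 and 4.66 in the double mutant mice, so without replicate 1 the means still overlapped through double mutant replicate 1. Myeloid and T and NK cell markers, given with *Trem2* and *Gzmb*, had their lowest mean log2(FPKM + 1) of the 6 libraries in the same Pb-ERG mouse (3.14 and 0.82), and their part in this result was not tested. The interferon-stimulated response element, searched as GAAA, any 2 bases and GAAA on both strands, was found in 3.44% of promoters, in 10 of the 20 list genes with a promoter and in 4 of the 8 higher in all mice. These 4 windows are shown with the matches in capitals, which overlap each other in *Isg15* and *Oas1a*.
*Isg15*, chr4:156200850-156200921, minus strand: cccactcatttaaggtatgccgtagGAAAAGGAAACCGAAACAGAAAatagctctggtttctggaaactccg
*Ifit1*, chr19:34640760-34640838, plus strand: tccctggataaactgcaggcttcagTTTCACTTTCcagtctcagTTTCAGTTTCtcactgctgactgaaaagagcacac
*Ifit3*, chr19:34583348-34583441, plus strand: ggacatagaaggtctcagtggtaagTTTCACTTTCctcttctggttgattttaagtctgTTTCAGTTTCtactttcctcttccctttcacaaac
*Oas1a*, chr5:120907526-120907570, minus strand: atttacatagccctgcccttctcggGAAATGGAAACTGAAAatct

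**Figure D4:**
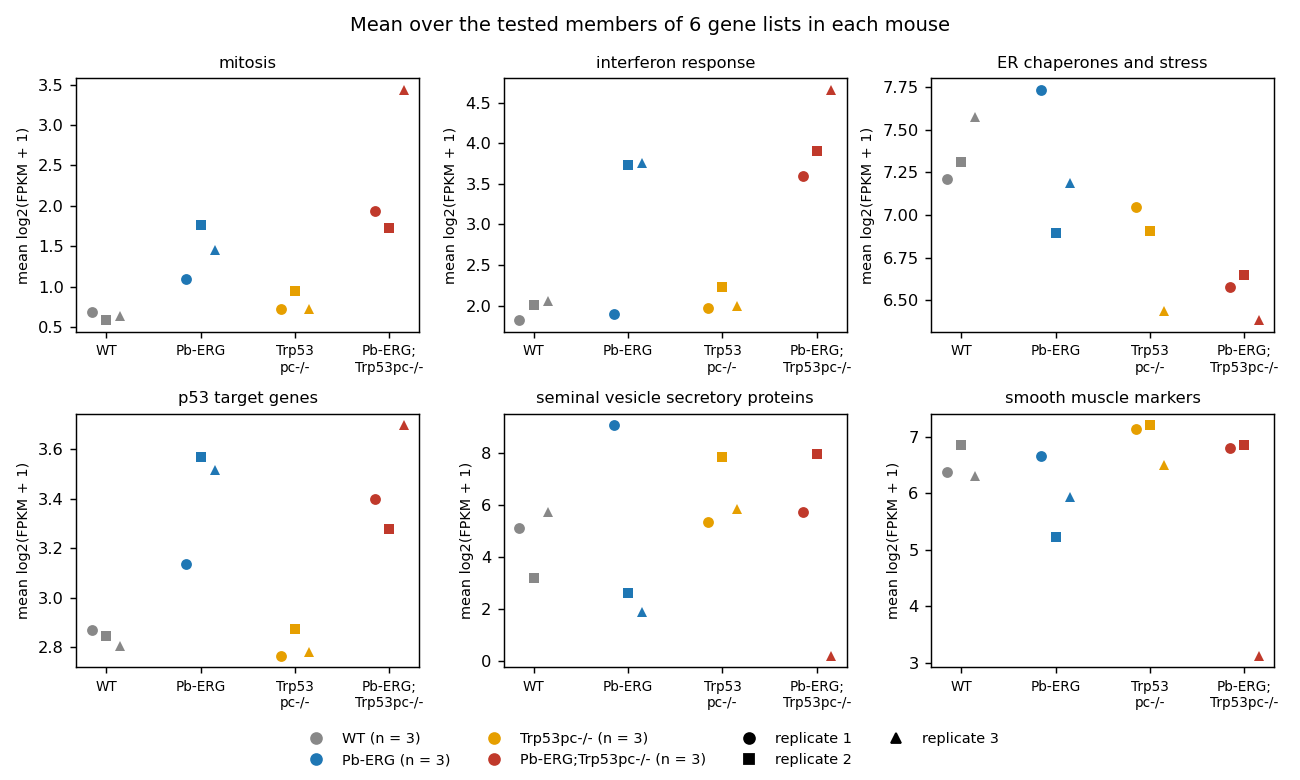
Mean log2(FPKM + 1) over the tested members of 6 gene lists (y axis, a scale for each panel that does not start at 0) in each of the 12 mice (points, n = 3 a genotype, marker shape by replicate). The chaperone mean of the double mutant mice (6.38 to 6.65) lies below that of the Pb-ERG mice (6.89 to 7.73), while double mutant replicate 3 stands apart in mitosis (3.43) and smooth muscle (3.13).

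Of 12 luminal epithelial markers, 4 were higher in all mice and 0 lower (33.3%, background 7.14%). Without double mutant replicate 3 the higher count was 8 (66.7%, background 12.5%). Without Pb-ERG replicate 1, 4 were higher and 1 lower (33.3% and 8.33%, background 12.5% each way). *Krt8*, a luminal keratin, had 63.9, 129 and 133 FPKM in the Pb-ERG mice and 232, 227 and 235 FPKM in double mutants (log2 difference 1.16, SE 0.28, adjusted p = 0.24 from limma). *Cldn4*, a tight junction claudin, had 134, 199 and 166 FPKM against 389, 310 and 291 FPKM. *Krt19* and the adhesion protein gene *Cdh1* (E-cadherin) were the other 2. Among the markers of luminal progenitor cells *Ly6d* alone of 10 was higher in all mice, at 13.4, 15.8 and 11.9 FPKM against 50.3, 31.0 and 180.5 FPKM. Of 12 basal markers, *Itga6* and the water channel *Aqp3* were higher in all mice. Without double mutant replicate 3, 6 of the 12 basal markers (50%) and 4 of the 10 progenitor markers (40%) were higher in all mice (background 12.5%). The basal median was 0.67 in place of 0.35. Without Pb-ERG replicate 1, 3 basal markers (25%) and 1 progenitor marker (10%) were higher, with the same background of 12.5%. Of 20 genes of epithelial-mesenchymal transition 5 were higher in all mice and 0 lower (25%), among them *Fn1* (fibronectin), *Tnc* (tenascin C), *Twist2* and *Cdh1*, the last being an epithelial gene that transition is known to reduce. *Fn1* had 31.4, 19.7 and 33.3 FPKM against 62.3, 48.3 and 157 FPKM. In the S100 family, grouped after the values were seen, 5 of 11 genes tested were higher in all mice and 0 lower (*S100a6*, *S100a10*, *S100a11*, *S100a13* and *S100a14*), and *S100a6* had 173, 190 and 220 FPKM against 596, 388 and 1071 FPKM.

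Secretory genes gave no common direction. *Pbsn* (probasin) had 6507, 6890 and 7441 FPKM against 6487, 6138 and 53.3 FPKM, so the difference of -2.42 became -0.14 without replicate 3. Of 17 prostate secretory protein genes 1 was lower (*Pbsn*) and 1 higher (*Ceacam10*, at 39.6, 11.1 and 4.87 FPKM against 54.4, 60.4 and 69.7 FPKM), and without replicate 3 the list's median went from -1.14 to 0.14 and the higher count to 4. Without Pb-ERG replicate 1, 3 were lower (17.6%, background 12.5%). The acute phase and antimicrobial list had 2 of 25 genes higher in all mice (8%, background 7.14%) and 0 lower. Without Pb-ERG replicate 1, 3 of its genes were lower (12%, background 12.5%). *Lcn2* (lipocalin 2, which binds bacterial iron carriers) had 467, 557 and 448 FPKM against 1387, 833 and 704 FPKM.

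In the remaining lists counts were low. In pyrimidine synthesis 3 of 23 genes were higher in all mice (*Umps*, which makes UMP, and *Uck2* and *Upp1* of the uridine salvage route) and 0 lower. *Umps* had 1.51, 1.89 and 2.62 FPKM in the Pb-ERG mice and 4.08, 2.89 and 6.00 FPKM in double mutants, and *Upp1* had 2.82, 2.66 and 1.78 FPKM against 4.26, 4.56 and 5.33 FPKM. In the Wnt/beta-catenin pathway 2 of 24 were higher (8.33%). They were *Ctnnb1*, beta-catenin, and the secreted inhibitor *Wif1*, the latter at 31.2, 17.2 and 27.7 FPKM against 63.3, 39.4 and 122 FPKM. Of 15 ETS factors *Etv5* and *Elk3* were higher in all mice (13.3%). None (0) of 16 glycolysis genes and 0 of 9 seminal vesicle genes was without overlap, and the same held, with all 6 libraries, for the smooth muscle, fibroblast, endothelial, neuroendocrine, neutrophil, B and plasma cell and adipocyte markers. Leaving out 1 of the 2 libraries that stood apart gave 0 to 2 markers without overlap in these lists, apart from the B and plasma cell markers. Of 8 skeletal muscle markers 1 was higher in all mice (12.5%). When 1 of those 2 libraries was left out, the higher counts reached at most 5 in pyrimidine synthesis (21.7%) and 4 in the Wnt pathway (16.7%). They reached at most 4 in G1/S control (18.2%), 3 in the ETS list (20%) and 3 in the skeletal muscle list (37.5%). The background for higher genes was 12.5% without either library, and 0 to 2 genes were lower in each list. Of 501 tested genes in the study's list of ERG targets, 70 were higher in all mice and 2 lower (13.97% and 0.399%), with a median of 0.57, which was 0.20 without replicate 3. That list was chosen by the study with these mice among its groups and is not independent evidence of a direction.

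**Figure D5:**
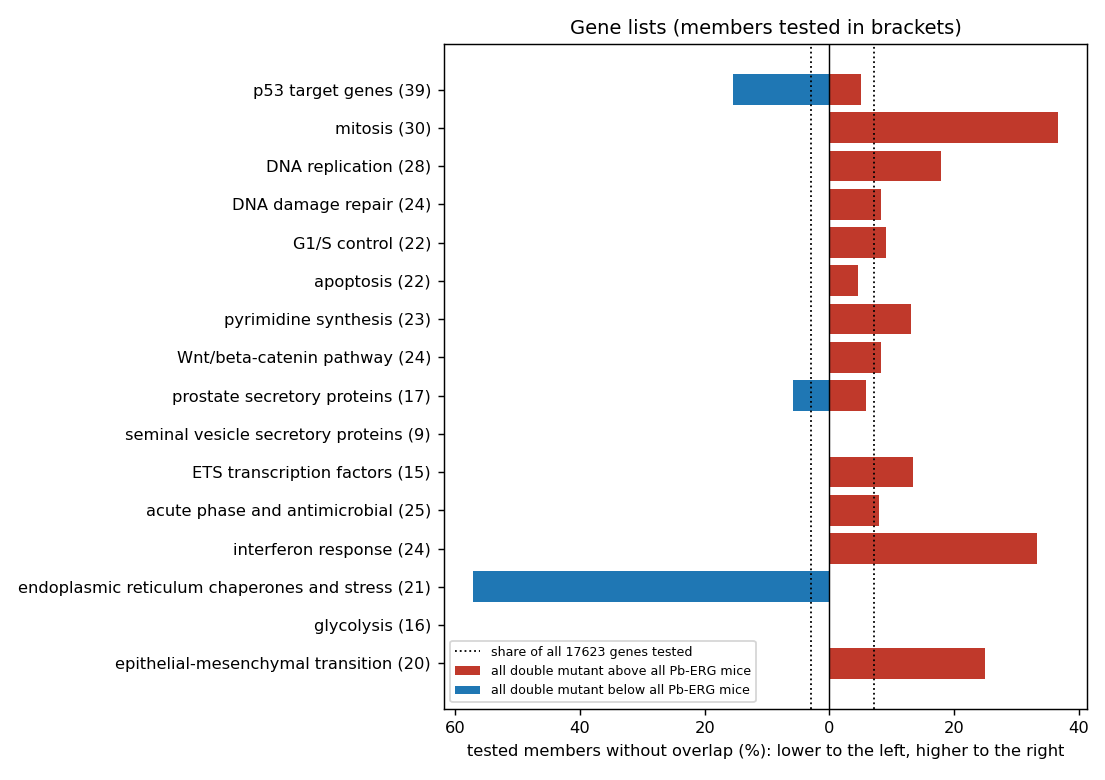
Share of the tested members of each of 16 gene lists (y axis, number tested in brackets) whose 3 double mutant mice lay all above (right) or all below (left) the 3 Pb-ERG mice, in percent on the x axis. Dotted lines give the shares over all 17623 genes tested (7.14% higher and 2.97% lower), which the mitosis (36.7%) and interferon (33.3%) lists exceed to the right and the chaperones (57.1%) to the left.

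Whether the *Trp53* deletion made another difference with the transgene than without it was tested directly, as the double mutant minus Pb-ERG difference less the Trp53pc-/- minus WT difference. No gene passed (0 higher and 0 lower at an adjusted p under 0.05, 0% each, limma with Benjamini-Hochberg adjustment), while 854 were higher (4.85%) and 279 lower (1.58%) at an unadjusted p under 0.05. *Dpysl3*, a cytoskeletal protein gene known from growing axons, had the smallest unadjusted p, with 6.36, 9.43 and 7.46 FPKM in the Pb-ERG mice, 20.6, 18.8 and 16.4 FPKM in double mutants, 5.19, 5.17 and 5.31 FPKM in WT animals and 3.40, 4.07 and 3.14 FPKM in Trp53pc-/- animals (non-additive log2 difference 1.64, SE 0.23, adjusted p = 0.39 from limma). *Stra6*, *Aqp3*, *Acox2* and *Dkk3* (a secreted relative of the Dickkopf proteins) followed, with 3.09, 0.79, 0.83 and 1.82 and adjusted p from 0.43 to 0.49 (limma with Benjamini-Hochberg adjustment). All 5 were higher in the double mutant mice than in every other group. Of the 1259 genes higher in all double mutant mice, 90 (7.15%) were also higher in all Trp53pc-/- than WT mice. This was near the 6.58% over all genes tested. Of the 524 lower genes 60 (11.5%) were also lower, beside 5.87% over all genes tested. The shared genes were 7.77% of those higher and 5.80% of those lower in the Trp53pc-/- mice, beside 7.14% and 2.97% over all genes tested.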

How the data were processed

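Prostate RNA was sequenced from 12 mice, 3 for each of 4 genotypes. Per the labels and the study's methods, the authors mapped read pairs with STAR to the mouse build GRCm38/mm10 (STAR 2.5.2b in the submitters' processing notes), counted genes with RSeQC and deposited FPKM, which scale each gene's fragments by its exons' length and by library size. Multiplying FPKM by exon length and a total per library recovered whole fragments for 100% of values (tolerance 0.01), with totals of 19747635 to 32565774. Nothing says more of the replicates than that they are separate mice.

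A gene was tested when 3 libraries or more had 0.42 CPM, equal to 10 fragments in a library of median size. limma 3.58.1 (R 4.3.3) with a mean-variance trend was fitted to log2(FPKM + 1) of all 12 libraries, with 8 residual degrees of freedom, a group mean per genotype and Benjamini-Hochberg adjustment over 17623 genes. On simulated data for double mutant minus Pb-ERG, 63.5% of 200 genes changed by 2 on the log2 FPKM scale among 17623 were called, with 4 false calls. The simulated noise was independent between genes, with a spread per gene shared by all genotypes and no outlying library. These rates may therefore not hold for the real libraries.

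Gene lists, members and tests were chosen with earlier results of these data known. Genes are named by rule: the 10 largest calls each way with a mean of 1 FPKM or more, the 10 widest gaps each way, the 5 smallest p of the non-additive effect, and list members without overlap or that define a list. Predicted genes and receptor segments are not named, and some items are not reported here. *Spcs3*, *Sec23b*, *Sec24a* and the S100 genes, which are in no such list except *S100a14*, were named after their values were seen. List symbols were matched to current and older symbols of RefSeq, in which 36918 symbols of the tables were current, 1048 older and 3076 unmatched. Alternatives were another scaling, filter, pseudocount, threshold, voom, library weights, a replicate block and leaving out mice. Python 3.11.15, pandas 2.3.3, numpy 2.4.6 and matplotlib 3.10.9 were used.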

Additional observations from a re-analysis of the deposited data

Results flagged for a closer look

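Groups of 3 mice are too small for a test of outlying samples. In 3 of the named genes every double mutant mouse lay above every Pb-ERG mouse while every Trp53pc-/- mouse lay below every WT mouse. The non-additive log2 difference was 1.64 for *Dpysl3* (SE 0.23, adjusted p = 0.39), 1.82 for *Dkk3* (SE 0.32, adjusted p = 0.49) and 2.05 for *Oasl2* (adjusted p = 0.75), by limma after Benjamini-Hochberg correction. None of the 3 passed the test. *Dkk3* had 3.82, 4.56 and 4.04 FPKM in the Pb-ERG mice, 13.1, 9.12 and 18.8 FPKM in double mutants, 3.87, 2.91 and 3.07 FPKM in WT animals and 2.13, 2.38 and 2.45 FPKM in Trp53pc-/- animals. Of the 1259 genes higher in all double mutant mice, 53 were lower in all Trp53pc-/- than WT mice (4.21%, beside 5.87% of all genes tested). The reverse held for 9 of the 524 lower genes (1.72%, beside 6.58% of all genes tested). Both shares were below those of all genes.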

How the results depend on the processing

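The number of calls depended strongly on the setting. For genes higher in the double mutant mice (3 as reported), a pseudocount of 0.1, voom on recovered fragments, the 6 libraries alone and an adjusted p under 0.001 each gave 0, no filter gave 12, and weights per library, which count double mutant replicate 3 (0.139) and Pb-ERG replicate 1 (0.226) least, gave 2612. For genes lower (0 as reported), median-of-ratios scaling gave 2, a total without the genes above 1% gave 1 and the weights 1547. Leaving out 1 mouse gave 0 to 133 higher genes (10 without Pb-ERG replicate 1, 1 without replicate 2 or 3, 0, 133 and 28 without double mutant replicates 1, 2 and 3) and 0 to 25 lower genes (25 without Pb-ERG replicate 1, 6 and 1 without double mutant replicates 2 and 3). In 2 settings chosen after seeing the data, median-of-ratios scaling without double mutant replicate 3 gave 13 higher and 3 lower genes, and leaving out that mouse and Pb-ERG replicate 1 gave 141 and 226. The non-additive effect (0 and 0) had 1 higher gene with no filter, 1308 higher and 1333 lower with weights, 2 higher with median-of-ratios scaling without double mutant replicate 3, 26 and 65 without both mice, and 0 to 8 lower genes when 1 mouse was left out (8 without Pb-ERG replicate 1). Genes without overlap numbered 2115 higher (1259 as reported) with the deposited FPKM alone and 1419 lower (524 as reported) with median-of-ratios scaling alone, 1749 to 2767 higher and 651 to 2195 lower when 1 of the 6 mice was left out, and 4130 and 4342 without both mice. Fewer mice make separation easier to reach by construction, and the other causes were not tested.

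Single genes were followed in only part of the settings. These were median-of-ratios scaling, a pseudocount of 0.1, the replicate block and leaving out 1 Pb-ERG or double mutant mouse at a time. *Ociad2*, *Smoc2* and *Acox2* stayed higher in all of these, with adjusted p of 0.015 to 0.19, 0.015 to 0.12 and 0.011 to 0.27 (limma with Benjamini-Hochberg adjustment). Of 114 genes followed, 106 kept their sign in these settings. The other settings, such as voom and weights per library, were not followed gene by gene. Most were named because the groups did not overlap in them, and leaving out a mouse cannot turn the sign of such a gene. The count is therefore no measure of stability. Leaving out 1 mouse at a time turned the sign of 8 genes, with differences of -0.80 to 0.0044 for *Erg*, -0.40 to 0.052 for *Trp53*, -0.79 to 0.18 for *Cdkn1a*, -0.32 to 0.0064 for *Mdm2*, -1.27 to 0.82 for *Krt5*, -1.35 to 0.90 for *Acta2*, -3.58 to 0.18 for *Tgm4* and -3.70 to 2.18 for *Svs2*. The turn came without double mutant replicate 3 for *Krt5*, *Acta2*, *Tgm4* and *Svs2* (0.24), without Pb-ERG replicate 1 also for *Svs2*, without replicate 1 of the double mutants for *Erg* and *Mdm2*, without their replicate 2 for *Trp53* and *Cdkn1a*, and without Pb-ERG replicate 3 for *Cdkn1a* (0.060). List medians moved by less than the spread between mice in 298 of 315 cases.

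With the replicate number as a block, 0 genes were called higher and 0 lower. The deviations of same-numbered Pb-ERG and double mutant mice correlated at 0.14, -0.21 and 0.083, so the numbers do not pair the mice. Depth limits genes such as *Itln1*, *Gdf15* and *Aqp3*, whose lowest library had 1 to 3 fragments.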
